A study of Homo sapiens with 32 samples.

Results

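Ribosome biogenesis genes code for the nucleolar proteins and enzymes that make ribosomes, and 45 of them were followed here through treatment of 2 lymphoma lines. The members are a list of gene symbols, drawn up with earlier results of these data known. All 45 symbols were found among the 25066 features of the deposited table, and all 45 were among the 12000 features tested in each line. RNA sequencing covered 32 libraries of the human diffuse large B cell lymphoma lines TMD8 and DOHH2, of which TMD8 is usually classed with the activated B cell type and DOHH2 with the germinal centre type. In every group the labels give the genotype as Cas9 engineered, and they do not say whether a line was a single clone. Cells received the vehicle DMSO or an agent that the labels name only as CSKi, at 500 nM (written as nm in the labels), for 1, 3, 6 or 24 h. Line, agent and time made 16 groups of 2 libraries. No group was sampled before treatment, so each CSKi group was compared with DMSO of the same line and hour. The labels call the duplicates biological but do not say that they were separate cultures, and the p-values measure only the spread between these libraries.

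Ribosomes are assembled in the nucleolus, where RNA polymerase I copies ribosomal DNA into a long precursor RNA. Small nucleolar RNA-protein particles (snoRNPs) of the box C/D and box H/ACA classes direct its methylation and pseudouridylation, and separate sets of processing factors then cut and fold it into the small and large subunits. The proto-oncogene product MYC is a well-known activator of these genes and binds, with its partner MAX, the E-box letters CACGTG.

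The libraries held 12273442 to 24907030 mapped reads, and a member had 223 to 51710 reads in a library. Levels are given as deposited, as log2 of reads multiplied by 1 factor per library. They are not divided by gene length, so they compare 1 gene between libraries and not 2 genes with each other. Defining B cell markers were present, with all 6 above 100 reads in every library. Markers of T and natural killer cells summed to at most 6.91 RPM (reads scaled to the total of the library) and those of myeloid cells to at most 10.7 RPM. Fibroblast and epithelial markers summed to 17.9 to 52.5 RPM in TMD8 and to at most 0.559 RPM in DOHH2. Values are relative to the RNA of a library, so less RNA per cell and fewer cells cannot be told apart from them. Reads from an overlapping or antisense partner of a member cannot be told apart, since nothing states whether the counting used strand, and NPM1 has processed pseudogenes that could share its reads. The 4 DOHH2 libraries at 24 h went against their labels: DMSO replicate 1 lay nearest to CSKi replicate 2 (SD of the log2 differences over features 0.278) and farther from its own duplicate (0.371). They were therefore left out of the fits for DOHH2 at 1, 3 and 6 h, and are described apart.

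Promoter windows from RefSeq (GRCh38.p14), each running from 250 bases before to 50 bases after a gene's start, were found for 37 of the 45 members; BOP1, DDX18, NOLC1, NOP58, RRP12, RRP1B, RRS1 and URB2 had none. The E-box CACGTG, which reads the same on both strands, occurred in 14 of these 37 members (37.8%), against 13.1% of the 9319 tested features with a window and 8.77% of all 27305 genes with one. The motif CCGGAAG, bound by ETS factors and searched on both strands, also occurred in 14 members (37.8%), against 24.0% of the tested features and 12.2% of all genes. Median GC content of the windows was 63.8% for members and 64.7% for the tested features. A match describes letters only, and no test was made of these shares. The stretches below belong to 8 of these 14 members, picked among those named in the results. Other members named there, such as NCL, NPM1, NOP56, DKC1 and PPRC1, had windows without the E-box. Each stretch shows the 12 bases on either side of the motif, 5′ to 3′ on the gene's strand, with the E-box in capitals.
LYAR (chr4:4290068-4290097, minus strand): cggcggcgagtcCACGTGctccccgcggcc
DDX21 (chr10:68956604-68956633, plus strand): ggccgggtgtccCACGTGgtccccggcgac
GAR1 (chr4:109815781-109815810, plus strand): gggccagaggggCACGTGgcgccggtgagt
GNL3 (chr3:52686026-52686055, plus strand): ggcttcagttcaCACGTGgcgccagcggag
WDR43 (chr2:28894658-28894687, plus strand): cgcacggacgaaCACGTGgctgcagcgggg
MRTO4 (chr1:19251807-19251836, plus strand): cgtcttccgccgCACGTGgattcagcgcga
MYBBP1A (chr17:4555340-4555369, minus strand): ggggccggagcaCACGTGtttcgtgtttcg
FBL (chr19:39846356-39846385, minus strand): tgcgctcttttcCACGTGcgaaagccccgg
Counted from the start that its window belongs to, the motif began 64 bases before the start for LYAR and 31 bases before it for DDX21. In the other 6 it began at bases 4 to 32 of the transcript. Whole windows are printed for the members with the largest and the smallest called fall in TMD8 at 24 h, LYAR and FBL. Each of these windows holds 1 E-box. LYAR, GNL3, GAR1 and DDX21 each have a further window, for another start, that holds 0.
LYAR window (chr4:4289972-4290271, minus strand): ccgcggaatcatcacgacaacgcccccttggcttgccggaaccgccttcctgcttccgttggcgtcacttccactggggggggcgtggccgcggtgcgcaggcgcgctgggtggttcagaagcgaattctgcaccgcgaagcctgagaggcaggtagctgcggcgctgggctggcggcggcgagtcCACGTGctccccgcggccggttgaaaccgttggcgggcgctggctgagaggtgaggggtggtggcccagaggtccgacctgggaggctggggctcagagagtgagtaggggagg
FBL window (chr19:39846330-39846629, minus strand): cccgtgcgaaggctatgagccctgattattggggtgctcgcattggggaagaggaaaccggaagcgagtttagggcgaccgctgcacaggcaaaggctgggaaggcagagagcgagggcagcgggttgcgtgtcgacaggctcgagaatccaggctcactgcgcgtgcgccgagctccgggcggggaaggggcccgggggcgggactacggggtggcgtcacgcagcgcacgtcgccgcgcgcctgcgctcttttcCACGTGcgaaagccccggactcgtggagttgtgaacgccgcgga

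In TMD8, ribosome biogenesis transcripts were lower with CSKi than with DMSO from 3 h on, and lower still at 24 h. A member was called when its adjusted p in limma's moderated test was under 0.05, with Benjamini-Hochberg adjustment over all 12000 features. At 1 h no member was called, where 0.05% of all features were called lower and 0% higher, and the median log2 difference of the members was -0.00. At 3 h 15 of 45 were lower and 0 higher, beside 3.26% of all features lower and 1.48% higher. At 6 h 37 were lower and 0 higher, beside 6.98% and 5.67%. At 24 h 44 were lower and 0 higher, beside 26.2% and 27.9%. The members' median difference moved from -0.11 at 3 h to -0.26 at 6 h and -0.48 at 24 h, while that of all features was 0.01 to 0.02. All 15 members lower at 3 h were also lower at 6 h, where they were 40.5% of those lower, and 36 of the 37 lower at 6 h were lower at 24 h (97.3% of the first list and 81.8% of the second). Both CSKi libraries lay below both DMSO libraries for 35 members at 3 h, 43 at 6 h and 44 at 24 h, against 22.8%, 24.9% and 35% of all features. The reverse held for 2, 0 and 0 members, against 27.8%, 31.8% and 38.6%.

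**Figure D1:**
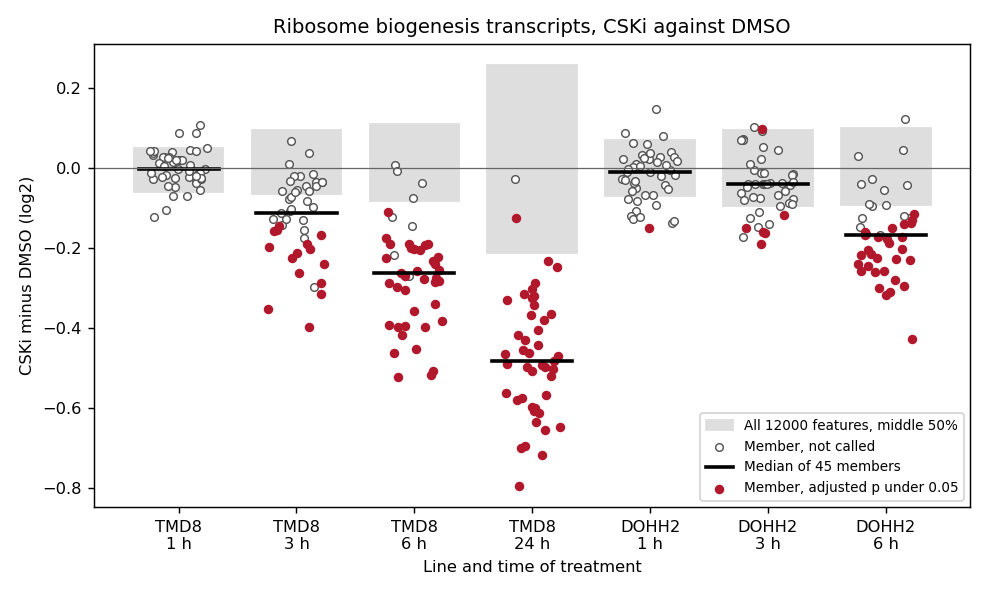
Difference between CSKi and DMSO (log2, vertical axis) for each of the 45 members (points) in TMD8 at 1, 3, 6 and 24 h and in DOHH2 at 1, 3 and 6 h. Filled points were called, black bars are medians of the members, and grey boxes span the middle 50% of all 12000 features. The TMD8 median falls from -0.00 at 1 h to -0.48 at 24 h, and the DOHH2 median reaches -0.17 at 6 h.

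The early calls at 3 h were spread over most steps of assembly. RRS1, a factor that brings the 5S RNA particle into the large subunit, stood at 10.40 and 10.44 with CSKi and at 10.85 and 10.79 with DMSO. Its groups lay well apart, and the log2 difference was -0.40 ± 0.057 (SE), so that the level fell by 24.1% (adjusted p = 3.95e-05). NOP56, a core protein of box C/D snoRNPs, read 13.06 and 13.07 against 13.27 and 13.28, a difference of -0.21 ± 0.039 (adjusted p = 0.000824). These 2 members stayed called without any 1 of the 4 libraries, with adjusted p of at most 0.00365 and 0.0234. URB2, a large subunit factor, read 11.35 and 11.44 against 11.64 and 11.68, and POLR1C, a subunit shared by RNA polymerases I and III, read 10.55 and 10.64 against 10.90 and 10.87. URB2 differed by -0.26 ± 0.050 (adjusted p = 0.00115) and POLR1C by -0.29 ± 0.056 (adjusted p = 0.00173), and both lost the call without CSKi replicate 1 (adjusted p = 0.064 and 0.0716). NOLC1, a chaperone of snoRNPs, was lower (-0.17 ± 0.037), and so was LYAR, a nucleolar protein of growing cells (-0.35 ± 0.095), which lost the call without DMSO replicate 2 or either CSKi library. By role, 3 of 5 box C/D members were lower, with NOLC1 counted in that group, and 0 of 3 box H/ACA members. Also lower were 1 of 3 RNA polymerase I subunits, 3 of 12 small subunit factors and 6 of 16 large subunit factors. The same held for 1 of 5 multifunctional nucleolar proteins and the coactivator PPRC1. Without 1 library, 3 to 7 members stayed called at 3 h, 3 of them without CSKi replicate 1 and 7 without DMSO replicate 1, DMSO replicate 2 or CSKi replicate 2. A fit of all 32 libraries called 7, and a variance model without a trend called 5.

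At 6 h the fall took in all roles. Of the box C/D group, 4 of 5 were lower. NOLC1, a chaperone of snoRNPs that was counted in that group, read 12.98 and 12.91 with CSKi against 13.37 and 13.29 with DMSO. Its difference of -0.38 ± 0.037 (adjusted p = 3.7e-08) stood beside -0.17 at 3 h, and the groups lay well apart. FBL, the box C/D methyltransferase, read 13.08 and 13.05 against 13.09 and 13.11 and was not called (-0.04 ± 0.036, adjusted p = 0.586). In the box H/ACA group, DKC1, the pseudouridine synthase, was lower by -0.30 ± 0.043 and GAR1 by -0.51 ± 0.10, whereas NHP2 read 11.65 and 11.64 against 11.68 and 11.59 and was not called (0.01 ± 0.045, adjusted p = 0.942). All 3 RNA polymerase I subunits were lower, within -0.24 to -0.19, with calls that were lost without 1 or more of the libraries.

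Among small subunit factors 10 of 12 were lower at 6 h. RRP12 read 11.53 and 11.49 against 11.91 and 11.94, a difference of -0.42 ± 0.045 (adjusted p = 2.26e-07). WDR43, which acts in the first complex on the precursor, read 11.39 and 11.35 against 11.79 and 11.84 (-0.45 ± 0.052, adjusted p = 6.01e-07). In both cases the groups lay much farther apart than the duplicates. UTP15 (-0.22 ± 0.094, adjusted p = 0.141) and NOC4L (-0.12 ± 0.067, adjusted p = 0.264) were the small subunit members not called. Among large subunit factors 12 of 16 were lower, with RRS1 at 10.28 and 10.21 against 10.78 and 10.74 (-0.52 ± 0.057, adjusted p = 3.91e-07). PPAN (-0.27), NOC3L (-0.14), NOC2L (-0.07) and BOP1 (-0.01) were not called, and BOP1 differed by less than its duplicates' spread although its PeBoW partners PES1 (-0.27) and WDR12 (-0.25) were lower.

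The multifunctional nucleolar proteins were all lower at 6 h, 5 of 5. DDX21, a helicase that works in both RNA polymerase I transcription and rRNA processing, read 13.05 and 13.04 against 13.51 and 13.51 (-0.46 ± 0.055, adjusted p = 1.14e-06). MYBBP1A read 11.96 and 11.88 against 12.35 and 12.28 (-0.40 ± 0.043, adjusted p = 3.09e-07). For both genes duplicates differed far less than the groups. NCL (nucleolin) and NPM1 (nucleophosmin), both histone and RNA binding proteins of the nucleolus, were also lower, NCL by -0.18 ± 0.032 and NPM1 by -0.11 ± 0.034, and the call of NPM1 was lost without any 1 of the 4 libraries. PPRC1, a coactivator of genes for growth and mitochondria, was lower by -0.39 ± 0.048. Without 1 library 27 to 32 members were called.

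**Figure D2:**
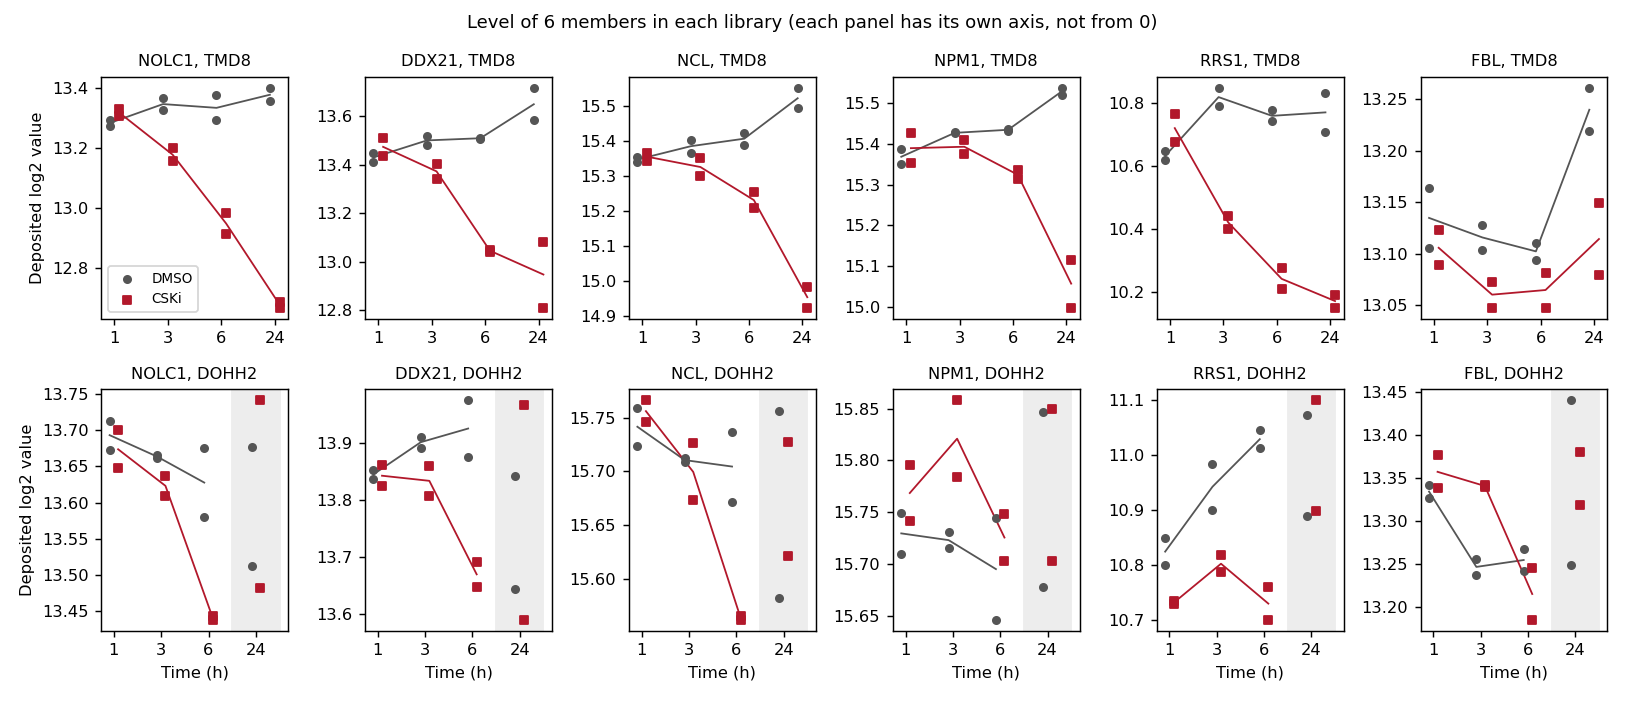
Deposited log2 level (vertical axis, its own range in each panel) of NOLC1, DDX21, NCL, NPM1, RRS1 and FBL in every library by time (h), TMD8 above and DOHH2 below, with DMSO as grey circles, CSKi as red squares and lines through the group means. In TMD8 the CSKi libraries of NOLC1 run down from 13.15 and 13.20 at 3 h to 12.67 and 12.69 at 24 h; the grey band marks the DOHH2 libraries at 24 h, whose labels do not sort them.

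By 24 h the fall in TMD8 reached 44 of the 45 members. NOLC1 read 12.67 and 12.69 against 13.35 and 13.40, a difference of -0.70 ± 0.037, so that it fell by 38.3% on the linear scale (adjusted p = 7.56e-14). NCL read 14.92 and 14.98 against 15.49 and 15.55 (-0.57 ± 0.032, adjusted p = 1.73e-13), and NPM1 read 14.999 and 15.116 against 15.54 and 15.52 (-0.47 ± 0.034, adjusted p = 1.95e-11). In both genes the groups lay far apart, and the differences at 6 h had been -0.18 and -0.11. GNL3 (nucleostemin), a nucleolar GTPase, read 12.40 in both CSKi libraries and 13.00 in both DMSO libraries (-0.60 ± 0.039, adjusted p = 2.26e-12). MRTO4, which places the ribosomal stalk, read 11.18 and 11.13 against 11.76 and 11.87 (-0.66 ± 0.046, adjusted p = 1.11e-11). DDX21 read 12.81 and 13.08 against 13.58 and 13.72 (-0.70 ± 0.055, adjusted p = 8.81e-11). The CSKi duplicates of DDX21 were not close to each other, yet both lay below both DMSO libraries. LYAR, singled out after its values were seen, read 8.79 and 9.06 against 9.63 and 9.82 and had the most negative difference of the 45, -0.80 ± 0.095 (adjusted p = 1.19e-07). The differences of the other 37 calls lay between -0.72 for GAR1 and -0.13 for FBL.

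Medians by role at 24 h ran from -0.57 for the multifunctional nucleolar proteins, -0.50 for box H/ACA and small subunit factors, -0.49 for PPRC1 and -0.48 for large subunit factors to -0.44 for box C/D and -0.38 for the RNA polymerase I subunits. The RNA polymerase I subunit POLR1B was lower by -0.43 ± 0.056 and the largest subunit POLR1A by -0.25 ± 0.045. Within the snoRNPs the small differences belonged again to FBL, at 13.15 and 13.08 against 13.22 and 13.26 (-0.13 ± 0.036, adjusted p = 0.00496), and to NHP2 (-0.23 ± 0.045, adjusted p = 0.000116). The call of FBL was lost without DMSO replicate 2 (adjusted p = 0.0649). MDN1, the giant ATPase midasin that releases factors from the large subunit, read 11.97 and 12.04 against 11.98 and 12.09 and was the exception (-0.03 ± 0.050, adjusted p = 0.662), though it was lower at 6 h (-0.19 ± 0.050, adjusted p = 0.00994), a call lost without 3 of the 4 libraries. Members together took 9341 and 9665 RPM in the DMSO libraries and 6424 and 6860 in the CSKi libraries. Leaving out 1 library left 43 or 44 members called.

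Cell type markers also moved in TMD8 at 24 h. B cell markers rose for 5 of 6, from sums of 3649 and 3697 RPM with DMSO to 4797 and 4978 with CSKi. Fibroblast and epithelial markers rose for 2 of the 3 tested, from 20.2 and 19.7 to 52.5 and 48.0 RPM, with COL1A1 at 1.55 ± 0.10 and KRT18 at 0 in all TMD8 libraries. Sums of T and natural killer cell markers were 3.33 and 3.76 against 5.73 and 4.92, with CD3D and KLRD1 at 0 throughout, and those of myeloid markers 3.06 and 3.81 against 6.22 and 4.92. Their part in the members' difference was not tested.

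**Figure D3:**
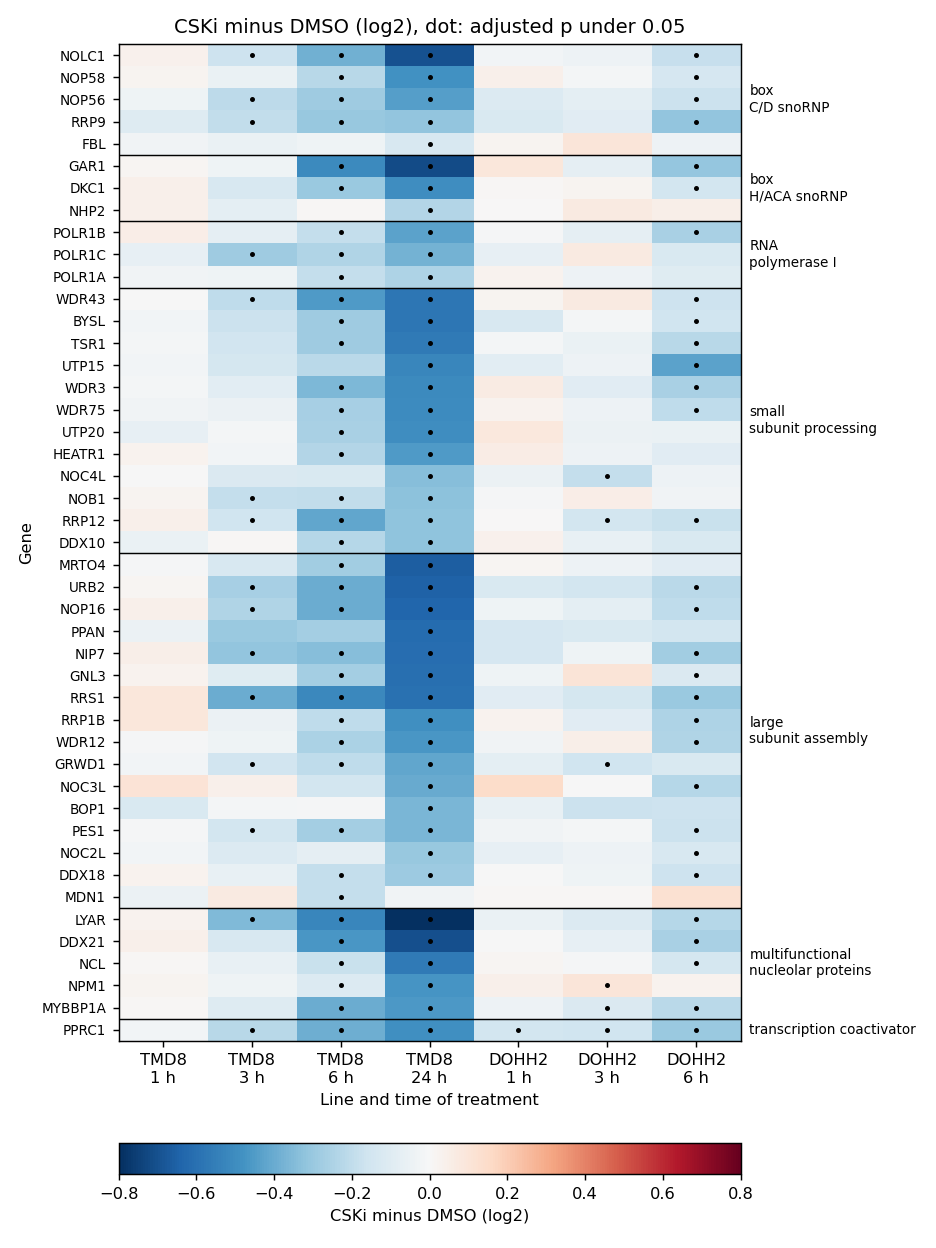
Log2 difference between CSKi and DMSO (colour scale) for every member (rows, grouped by role) in 7 comparisons of line and hour (columns); a dot marks an adjusted p under 0.05. The TMD8 column at 24 h has 44 dots and that of DOHH2 at 6 h has 30, and MDN1, NHP2 and FBL stand out as pale rows.

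The response at 24 h was then tested against that at 6 h in TMD8, as the difference between the 2 differences. It was more negative at 24 h for 25 of 45 members and more positive for 0, beside 14.1% and 15.4% of all features, with a members' median of -0.23. NCL gained a further -0.39 ± 0.045 (adjusted p = 2.97e-07) and NPM1 -0.36 ± 0.048 (adjusted p = 2.76e-06). MRTO4 (-0.38 ± 0.065, adjusted p = 7.93e-05) and GNL3 (-0.33 ± 0.055, adjusted p = 5.81e-05) followed. For RRS1, at -0.52 at 6 h and -0.60 at 24 h, a further change was not shown (-0.08 ± 0.081, adjusted p = 0.488). From 6 to 24 h 29 members were lower and 1 higher in the CSKi arm, beside 25.4% and 23.4% of all features, with a members' median of -0.19. In the DMSO arm 5 were lower and 7 higher (11.1% and 15.6% of the members), shares below the 20.9% and 20.6% of all features, with a median of 0.015. Without 1 library the count of 25 ranged from 13 without CSKi replicate 1 at 6 h to 30, with 14 without DMSO replicate 2 at 24 h and 16 without DMSO replicate 2 at 6 h. The 12 calls of the DMSO arm became 7 without replicate 2 of 6 h and 6 without that of 24 h.

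In DOHH2 few members were called before 6 h, and at 6 h most were lower. At 1 h PPRC1 alone was lower, at 12.19 and 12.10 against 12.28 and 12.30 (-0.15 ± 0.039, adjusted p = 0.0442), beside 1.23% of all features lower and 0.825% higher; the call held without CSKi replicate 1 and not without any other of the 4 libraries. At 3 h 5 members were lower and 1 higher, beside 7.27% and 7.28%, with a median of -0.04, so the members' share was close to that of all features. PPRC1 read 12.13 and 12.18 against 12.34 and 12.29 (-0.16 ± 0.039, adjusted p = 0.00556), and lost the call without DMSO replicate 1 (adjusted p = 0.10) or CSKi replicate 1 (0.074). GRWD1, NOC4L, RRP12 and MYBBP1A were the other 4 lower. NPM1 read 15.86 and 15.78 against 15.71 and 15.73 and was called higher (0.10 ± 0.032, adjusted p = 0.0385), but quantile normalization turned this to -0.02, and the call was lost without either DMSO library or CSKi replicate 1. Counts at 3 h without 1 library were 0 without DMSO replicate 1, 2 without DMSO replicate 2 or CSKi replicate 1, and 4 without CSKi replicate 2. Another scaling moved the split of 5 lower and 1 higher to 4 and 3 with median of ratios and to 9 and 0 with total mapped reads.

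At 6 h in DOHH2 30 of 45 members were lower and 0 higher, beside 6.67% and 6.96% of all features, with a median of -0.17. Groups did not overlap for 37 lower and 2 higher members, against 26.3% and 26.6% of all features. DDX21 read 13.69 and 13.65 against 13.97 and 13.88 (-0.26 ± 0.034, adjusted p = 3.52e-06). PPRC1 read 11.99 and 12.02 against 12.30 and 12.30, a difference of -0.30 ± 0.039 that was clear of the spread between duplicates (adjusted p = 4.24e-06). RRP9, which binds the U3 snoRNA, was lower by -0.32 ± 0.047 (adjusted p = 2.3e-05), and RRS1 read 10.70 and 10.76 against 11.05 and 11.01 (-0.30 ± 0.050, adjusted p = 9.87e-05). UTP15, a partner of WDR43 in the first processing complex, had the most negative difference here, reading 9.59 and 9.43 against 10.05 and 9.83 (-0.43 ± 0.077, adjusted p = 0.000266). NPM1 (0.03), NHP2 (0.05), FBL (-0.04) and MDN1 (0.12) were among the 15 not called. These 30 calls depended on the libraries in the fit: with all 16 DOHH2 libraries, those of 24 h included, 2 members were called, and with all 32 libraries 11. Without 1 library 18 to 25 were called, the lowest, 17 lower and 1 higher, without DMSO replicate 1. A variance model without a trend called 16. Of 6 B cell markers 3 were lower and 2 higher at this hour, and their part in the members' difference was not tested.

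Of the 37 members lower in TMD8 at 6 h and the 30 lower in DOHH2, 27 were in both lists, which is 73.0% of the first and 90% of the second. UTP15, NOC2L and NOC3L were called in DOHH2 and not in TMD8. Whether the lines differed was tested as the TMD8 response minus the DOHH2 response in 1 fit of 28 libraries. At 1 h no member differed, beside 0.117% of features lower and 0.333% higher. At 3 h 5 members had a more negative response in TMD8 and 0 a more positive one, beside 2.64% and 2.18%, with a members' median of -0.08. They were POLR1C (-0.36 ± 0.076, adjusted p = 0.00628), GNL3 (-0.20 ± 0.049, adjusted p = 0.0178), WDR43 (-0.27 ± 0.068, adjusted p = 0.0207), RRS1 (-0.26 ± 0.068, adjusted p = 0.0302) and FBL (-0.15 ± 0.043, adjusted p = 0.046). At 6 h 4 did so, WDR43 (-0.29 ± 0.068, adjusted p = 0.0103), NOLC1 (-0.20 ± 0.049, adjusted p = 0.0141), RRP12 (-0.24 ± 0.060, adjusted p = 0.0147) and MDN1 (-0.31 ± 0.080, adjusted p = 0.0172), beside 3.46% and 2.52% and with a median of -0.11. The call of FBL was lost without any 1 of the 8 libraries, and each of the other 8 gene calls without at least 1 of them. For the other members a difference between the lines was not shown, which does not make their responses equal. The 5 calls at 3 h became 0 without TMD8 CSKi replicate 1, 1 without DOHH2 CSKi replicate 2 and 2 or 3 without any other library. WDR43, NOLC1, RRP12 and MDN1 all lost the call at 6 h without DOHH2 DMSO replicate 2. The number called also changed without some of the other libraries.

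**Figure D4:**
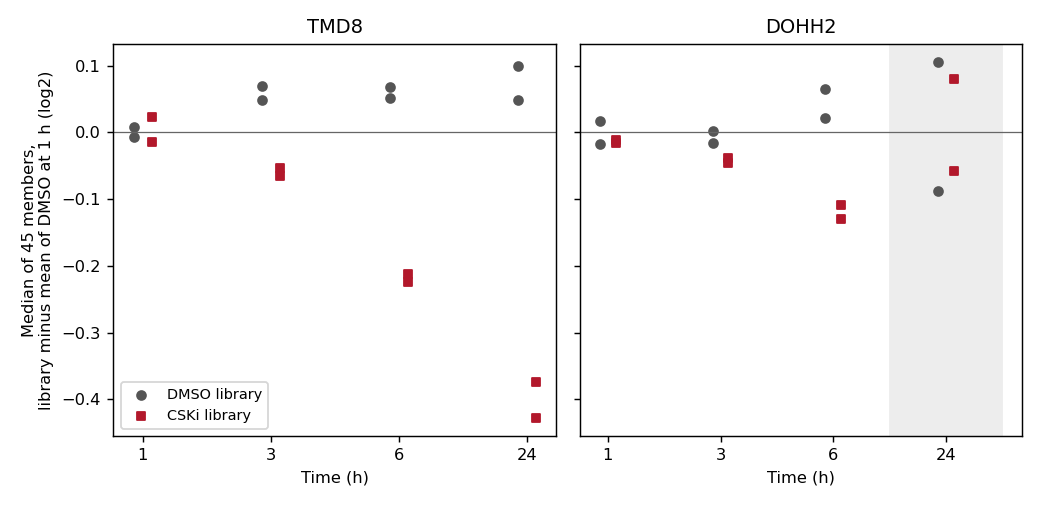
Median over the 45 members of the log2 difference between 1 library and the mean of DMSO at 1 h of its line (vertical axis), by time (h), for DMSO (grey circles) and CSKi (red squares) libraries of TMD8 (left) and DOHH2 (right). The TMD8 CSKi libraries reach -0.43 and -0.37 at 24 h and the DOHH2 CSKi libraries -0.13 and -0.11 at 6 h; in the grey band at 24 h, 1 library of each label is high and 1 is low.

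The DOHH2 libraries labelled 24 h gave no call among the members, 0 lower and 0 higher, and 0% of all features were called in either direction. The members' median difference as labelled was -0.00, within -0.25 to 0.27. Measured against the mean of the 2 libraries labelled DMSO, the members' median was -0.08 in the library labelled DMSO replicate 1 and -0.08 in that labelled CSKi replicate 2, but 0.08 in that labelled DMSO replicate 2 and 0.06 in that labelled CSKi replicate 1. DMSO replicate 2 exceeded CSKi replicate 2 for 43 of 45 members, and DMSO replicate 1 exceeded CSKi replicate 1 for 4. Leaving out the library labelled CSKi replicate 2 moved the members' median difference as labelled to 0.06. No change at 24 h in DOHH2 is drawn from these libraries.

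In the vehicle alone more members were higher than lower in TMD8 at later hours. From 1 h, 11 were higher and 2 lower at 3 h (9.68% of all features each way), 7 higher and 1 lower at 6 h (11.2% and 12.4%), and 17 higher and 5 lower at 24 h (22.8% and 23.9%). LYAR rose from 9.20 and 9.32 at 1 h to 9.63 and 9.82 at 24 h (0.46 ± 0.095, adjusted p = 0.00029). RRP1B rose from 11.69 and 11.63 to 11.999 and 11.995 (0.34 ± 0.044, adjusted p = 6.94e-07). RRP12 went the other way, from 11.93 and 11.92 to 11.63 and 11.71 (-0.26 ± 0.045, adjusted p = 4.6e-05). The comparisons of CSKi with DMSO at 24 h and of DMSO at 24 h with 1 h share the DMSO libraries of 24 h. Relative to DMSO at 1 h, the members' median in the CSKi libraries of 24 h was -0.43 and -0.37, so these lay below the vehicle of 1 h as well. The counts depended on single libraries: at 3 h 13 calls became 4 without either library of 1 h, 6 without replicate 1 of 3 h and 2 without replicate 2 of 3 h. At 6 h 8 calls became 4 without replicate 2 of 1 h or of 6 h and 5 without replicate 1 of 6 h. At 24 h 22 calls became 11 without replicate 2 of 24 h and 15 without that of 1 h, with 18 otherwise.

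In the DOHH2 vehicle 7 members were higher and 10 lower at 3 h than at 1 h (15.6% and 22.2% of the members), near the 16.5% and 17.3% of all features. At 6 h 15 were higher and 8 lower (33.3% and 17.8%), beside 20.3% and 23.4% of all features. NOC3L, a large subunit factor, went from 10.00 and 9.90 at 1 h to 10.57 and 10.46 at 6 h (0.56 ± 0.066, adjusted p = 2.98e-07). POLR1B went from 11.17 and 11.04 to 11.68 and 11.57 (0.52 ± 0.051, adjusted p = 1.75e-08). GNL3 fell meanwhile from 12.95 and 12.93 to 12.69 and 12.67 (-0.26 ± 0.036, adjusted p = 2.51e-06). The comparisons of CSKi with DMSO at 6 h and of DMSO at 6 h with 1 h share the DMSO libraries of 6 h. Relative to DMSO at 1 h, the members' median in the CSKi libraries of 6 h was -0.13 and -0.11. Not all members lay below the vehicle of 1 h: POLR1B, at 11.39 and 11.34 with CSKi at 6 h, lay above it. So did WDR3, WDR75, NOC3L, HEATR1, UTP20, POLR1A and MDN1. At 3 h the 17 calls became 9 and 10 without replicate 1 or 2 of 1 h and 8 and 11 without replicate 1 or 2 of 3 h, and at 6 h the 23 calls became 15 without replicate 2 of 1 h, with 16 to 22 without another library. Scaling shifted these splits: with median of ratios 5 were higher and 14 lower at 3 h and 13 and 11 at 6 h, and with total mapped reads 10 and 7, then 18 and 5. In TMD8 from 6 to 24 h total mapped reads scaling gave 4 higher and 6 lower vehicle members, in place of 7 and 5, and at 3 h against 1 h 12 and 0 in place of 11 and 2.

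Vehicle levels of most members were lower in TMD8 than in DOHH2. Over the mean of 1, 3 and 6 h, 29 members were lower in TMD8 and 11 higher, in a comparison where 45.6% of all features were lower and 43.8% higher, and the members' median was -0.28. LYAR had a mean level of 9.46 in TMD8 and 11.38 in DOHH2 (-1.92 ± 0.048), DDX10 9.77 and 10.99 (-1.22 ± 0.033), and RRP1B 11.73 and 12.83 (-1.10 ± 0.020). GRWD1, a histone-binding large subunit factor, was the reverse, at 12.69 and 11.32 (1.37 ± 0.022). MYC itself was lower in TMD8 (-2.06 ± 0.030).

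MYC was read beside the members as the best-known activator of this programme. In TMD8 at 1 h it read 11.82 and 11.84 with CSKi against 11.75 and 11.89 and was not called (0.01 ± 0.058, adjusted p = 0.997). At 3 h MYC read 10.52 and 10.41 against 11.39 and 11.27 (-0.86 ± 0.058, adjusted p = 7.65e-11), at 6 h 10.74 and 10.64 against 11.38 and 11.38 (-0.69 ± 0.058), and at 24 h 10.98 and 10.86 against 11.64 and 11.74 (-0.77 ± 0.058). MYC thus stood at -0.86 when the members' median was -0.11, and at -0.77 when that median was -0.48. In DOHH2 MYC was not called at 1 h (0.11 ± 0.035) or 3 h (-0.03 ± 0.035), and read 13.43 and 13.54 against 13.81 and 13.83 at 6 h (-0.34 ± 0.035, adjusted p = 7.63e-08), the hour at which 30 members were lower. The response of MYC was more negative in TMD8 by -0.83 ± 0.075 at 3 h (adjusted p = 1.83e-07) and by -0.35 ± 0.075 at 6 h (adjusted p = 0.00377). Among members with a promoter window, those with the E-box had a median of -0.28 (n = 14) and those without it -0.23 (n = 23) in TMD8 at 6 h, -0.54 and -0.46 at 24 h, and -0.17 and -0.15 in DOHH2 at 6 h. At 24 h those with the motif ran from -0.80 for LYAR to -0.03 for MDN1, whose window holds 2 E-boxes, and those without it from -0.63 to -0.23. These are descriptions, with no test. In the TMD8 vehicle MYC also fell from 1 to 3 h (-0.49 ± 0.058, adjusted p = 1.80e-06), while more members were called higher than lower. In the DOHH2 vehicle MYC rose (0.42 ± 0.035, adjusted p = 2.13e-09), while more members were called lower than higher at 3 h than at 1 h. The members' shares there were near the 17.3% lower and 16.5% higher of all features. Total mapped reads scaling reversed the split, with more members higher than lower. A link between MYC and the members was not tested.

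Most other ribosome biogenesis genes were also lower in TMD8 at 24 h, when most cytosolic ribosomal protein genes were higher. Of 119 further biogenesis genes tested, 7 were lower and 0 higher in TMD8 at 3 h, beside 3.26% and 1.48% of all features. At 6 h 35 were lower and 0 higher, beside 6.98% and 5.67%, and at 24 h 96 and 2, beside 26.2% and 27.9%. Their medians were -0.07, -0.11 and -0.31. In DOHH2 at 3 h 7 were lower and 3 higher, with a median of -0.02, no larger a share than the 7.27% and 7.28% of all features. In DOHH2 at 6 h 42 were lower and 2 higher, beside 6.67% and 6.96%, with a median of -0.11. With all 16 DOHH2 libraries these became 0 and 0 at 3 h and 2 and 0 at 6 h, and with all 32 libraries 12 were lower at 6 h. NOP2, an rRNA methyltransferase, was lower in TMD8 by -0.21 ± 0.038 at 3 h, -0.27 ± 0.038 at 6 h and -0.45 ± 0.038 at 24 h, and in DOHH2 by -0.25 ± 0.037 at 6 h. The small subunit factor NOL6 was lower in TMD8 by -0.30 ± 0.039 at 6 h, and the large subunit GTPase GTPBP4 by -0.64 ± 0.040 at 24 h. PNO1, a late small subunit factor, differed in DOHH2 at 6 h by -0.43 ± 0.048 (adjusted p = 2.42e-07). RNA polymerase III subunit and factor genes, whose products make 5S RNA and transfer RNA, gave 0 calls of 21 in TMD8 at 3 and 6 h. At 24 h 13 were lower and 1 higher, beside 26.2% and 27.9% of all features, with POLR3B at -0.64 ± 0.067.

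Cytosolic ribosomal protein transcripts rose in TMD8 at 24 h. In TMD8 0 of 78 were called at 3 h. At 6 h 3 were higher, beside 5.67% of all features, and at 24 h 74 were higher and 1 lower, beside 27.9% and 26.2%. Their medians at 3, 6 and 24 h were -0.00, 0.04 and 0.22. RPS27 read 15.88 and 15.78 against 15.46 and 15.36 at 24 h (0.43 ± 0.036, adjusted p = 2.62e-10), the groups lying apart in the opposite direction to NCL and NPM1. In DOHH2 58 were higher and 0 lower at 3 h, beside 7.28% and 7.27% of all features. At 6 h 14 were higher and 0 lower, beside 6.96% and 6.67%, and the medians were 0.11 at 3 h and 0.07 at 6 h. These small rises depended on scaling and on the libraries: after quantile normalization 50 were higher and 5 lower in TMD8 at 24 h (median 0.11), and 13 and 1 in DOHH2 at 3 h (median 0.04), and with all 16 DOHH2 libraries none was called in DOHH2 at either hour. Mitochondrial ribosomal proteins, coded by nuclear genes, were called lower for 2, 3 and 49 of 76 in TMD8 at 3, 6 and 24 h, the last beside 26.2% of all features. They were called higher for 0, 1 and 0, and MRPL12 stood at -0.77 ± 0.047 at 24 h. At 3 and 6 h these shares were no larger than those of all features (3.26% and 1.48%, then 6.98% and 5.67%). In DOHH2 2 were lower and 1 higher at 3 h, and 5 and 1 at 6 h, shares no larger than those of all features (7.27% and 7.28%, then 6.67% and 6.96%), and none was called with all 16 DOHH2 libraries. Like the members they were lower at 24 h in TMD8, but their median at 6 h was -0.01 where that of the members was -0.26.

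**Figure D5:**
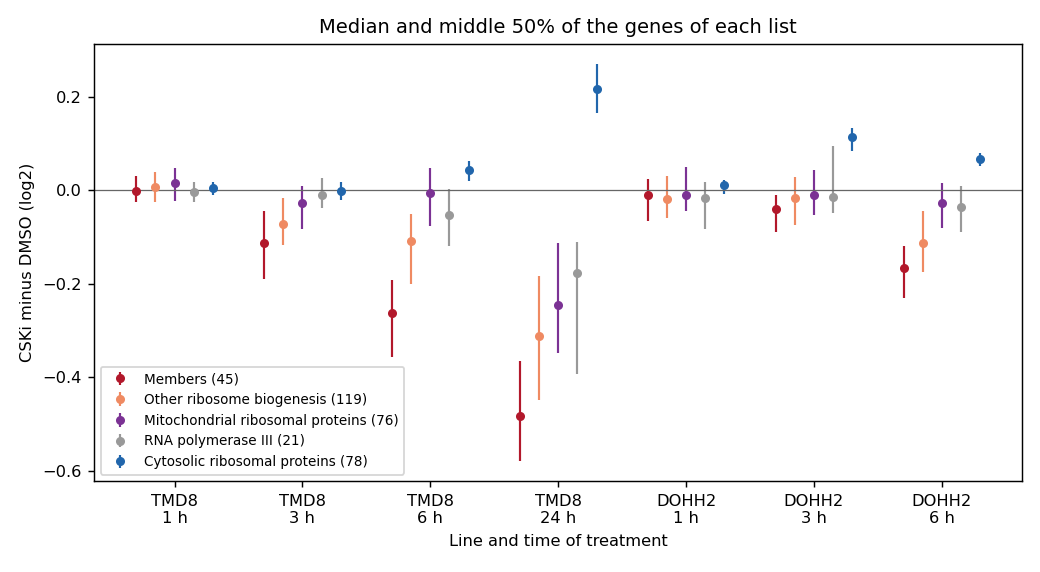
Median (points) and middle 50% (bars) of the log2 difference between CSKi and DMSO (vertical axis) for the members and 4 other gene lists in TMD8 and DOHH2 by hour. At 24 h in TMD8 the members sit at -0.48 and the cytosolic ribosomal proteins at 0.22.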

How the data were processed

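RNA was taken with RNeasy columns, made into libraries with the TruSeq stranded mRNA kit and sequenced as paired reads of 75 bases, per the labels' protocols. HTSeq and the build hg19 are named in the submitters' processing notes; no source used here gives the aligner, tool versions or strand setting. The deposited table holds log2 values, with a row of total mapped reads. The values were checked to be log2 of whole reads multiplied by 1 factor per library, with 0 for no reads; recovered reads summed to the deposited totals. Differences were fitted with limma 3.58.1 in R 4.3.3 (group means, empirical Bayes with a trend), with Benjamini-Hochberg adjustment over the 12000 features of highest mean, called at an adjusted p under 0.05. TMD8 used 16 libraries, DOHH2 12, without 24 h, and the comparison of lines 28. The script was tested on simulated data. Depth was 12273442 to 24907030 reads. Alternatives changed the scaling, filter, variance model, libraries and replicate block, used voom on recovered reads, or left out 1 library. Values in every library were given for up to 4 members of each role and comparison, those of smallest unadjusted p among members called with groups that did not overlap, members not called were named where 8 or fewer, and up to 3 genes of each other list and MYC were added; LYAR at 24 h and other genes outside this rule were chosen after their values were seen. Members and lists were chosen with earlier results of these data known. Promoters came from RefSeq (GRCh38.p14), matched by gene ID. Figures used Python 3.11.15, pandas 2.3.3 and matplotlib 3.10.9.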

Additional observations from a re-analysis of the deposited data

Results flagged for a closer look

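The response to CSKi differed between the lines for 5 members at 3 h and 4 at 6 h. This was by a test of the difference itself, and all were more negative in TMD8. Of all features, 2.64% were more negative in TMD8 and 2.18% more positive at 3 h, and 3.46% and 2.52% at 6 h. Each of these member calls was lost without at least 1 library. The fit of all 32 libraries called 1 member at each hour. At 3 h the differences were -0.36 for POLR1C, -0.27 for WDR43, -0.26 for RRS1, -0.20 for GNL3 and -0.15 for FBL on the log2 scale. At 6 h they were -0.31 for MDN1, -0.29 for WDR43, -0.24 for RRP12 and -0.20 for NOLC1. WDR43 was in both sets.

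Within TMD8 the response was more negative at 24 h than at 6 h for 25 members, by the same kind of test. Of all features, 14.1% were more negative and 15.4% more positive, and the number of members called depended on single libraries. Among them NCL gained -0.39, MRTO4 -0.38, NPM1 -0.36, GNL3 -0.33 and NOLC1 -0.31.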

How the results depend on the processing

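Of 632 values of named genes under the alternatives, 538 kept their direction and their side of the threshold, 93 kept their direction and lost the call, and 1 reversed. That was NPM1 in DOHH2 at 3 h, which became -0.0164 with quantile normalization. Of 186 counts of members called under alternatives other than leaving out a library, 144 were within 1.5 times. The counts that moved are given by setting, and the cause was not tested. With all 32 libraries in 1 fit they were 7 in TMD8 at 3 h, 0, 0 and 11 in DOHH2 at 1, 3 and 6 h, 1 for the line difference at 3 h and at 6 h, 5, 1 and 12 for TMD8 vehicle at 3, 6 and 24 h against 1 h, 7 and 12 for DOHH2 vehicle at 3 and 6 h, and 6 for TMD8 vehicle at 24 h against 6 h. With all 16 DOHH2 libraries DOHH2 gave 0, 0 and 2, and its vehicle 3 and 10. A variance model without a trend gave 5 in TMD8 at 3 h, 0, 0 and 16 in DOHH2, 2 and 2 for the line difference, 15 for 24 h minus 6 h, 7 for TMD8 vehicle at 3 h and 5 at 24 h against 6 h, and 11 and 15 for DOHH2 vehicle. Testing all features above 0 gave 0 and 3 in DOHH2 at 1 and 3 h, 3 for the line difference at 3 h, 16 for 24 h minus 6 h and 8 for TMD8 vehicle at 3 h. The line difference at 6 h was 7 with 8000 features. Voom gave 3 and 7 for the line difference at 3 and 6 h and 13 for TMD8 vehicle at 6 h. Total mapped reads, an alternative chosen after seeing the data, gave 2 in DOHH2 at 1 h and 2 for the line difference at 3 h, and quantile normalization 2 in DOHH2 at 1 h.

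Without 1 library in turn the counts were 0 in TMD8 at 1 h, 3 to 7 at 3 h, 27 to 32 at 6 h and 43 to 44 at 24 h. In DOHH2 they were 0 to 1, 0 to 4 and 18 to 25, and 0 to 3 at 24 h as labelled. The line difference gave 0, 0 to 3 and 1 to 5, and 24 h minus 6 h gave 13 to 30. TMD8 vehicle gave 2 to 6, 4 to 6 and 11 to 18 against 1 h and 6 to 8 at 24 h against 6 h, DOHH2 vehicle 8 to 11 and 15 to 22, TMD8 CSKi at 24 h against 6 h 21 to 31, and the vehicle of the lines 39 to 40. A group left with 1 library was assumed to vary like the other groups.

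Same-numbered libraries showed little shared deviation, with correlations of 0.03 to 0.07 in TMD8 and -0.02 to 0.06 in DOHH2 up to 6 h. No pairing by replicate number was seen in these values, which does not show that such libraries had nothing in common. With the replicate block 2 members were called in DOHH2 at 1 h and 10 at 3 h, against 1 and 6 without it, and other counts stayed within 1.5 times. At 24 h in DOHH2 the correlation was -0.38, and a crossed pairing, added after seeing the data, called 0 members, as did the block. Both fits kept CSKi and DMSO as labelled, so they cannot tell whether those labels are crossed.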
